A study of Arabidopsis thaliana with 4 samples.

Results

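Transcripts of 7 nuclear genes for ribosomal proteins were followed in the eif3h mutant and the wild type of Arabidopsis thaliana, as 7 probe sets among the 22746 on the array that are not controls. PSRP6 (AT5G17870), RPL27 (AT5G40950), RPL9 (AT3G44890) and PRPL35 (AT2G24090) encode proteins of the plastid ribosome. MRPL11 (AT4G35490) encodes a protein of the mitochondrial ribosome, and RP1 (AT1G43170, ribosomal protein L3) and AT3G49910 (RPL26A) encode proteins of the cytosolic ribosome. The genes were chosen by their transcript ratios between mutant and wild type on these same arrays, so their differences between genotypes are given as a description without a test. In addition, 6 of the 7 probe sets were named here only through gene lists that the study drew up from its own arrays, and only RPL26A was named by the annotation of the array platform. By those lists, 4 genes (PSRP6, RPL27, RPL9 and RP1) had been picked for a lower transcript level in the mutant and 3 (PRPL35, MRPL11 and RPL26A) for a higher polysome loading.

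Total RNA came from seedlings harvested at an age of 10 days without their roots and grown on sucrose-containing agar medium in continuous light, with 2 arrays per genotype. The eif3h-1 allele is a T-DNA insertion that leaves a C-terminally truncated form of eIF3h, a subunit of the translation initiation factor eIF3, and no second allele was on these arrays. Each of 2 experimental repeats, prepared on different days from pooled seedlings, gave 1 array of each genotype. With the repeat as a block, p-values weigh the mean difference between genotypes against the variation of that difference between the repeats. The variance of each probe set is moderated by limma towards that of all tested probe sets, which carries most of the weight here. By the deposited settings of the array runs, the arrays of a repeat shared a scanner, and those of the 2 repeats did not.

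A plant cell has 3 kinds of ribosome. Cytosolic ribosomes read nuclear transcripts and are built from proteins that are each encoded by a small family of nuclear genes. Plastid and mitochondrial ribosomes resemble those of bacteria, and most of their proteins are encoded in the nucleus and imported, while the others and the ribosomal RNAs are encoded in the organelle. In green tissue the plastid ribosomes make the plastid-encoded subunits of the photosynthetic complexes and of Rubisco.

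Signals are MAS 5.0 intensities on a linear scale with a trimmed mean of 500.0 on every array, and the median signal was 201 to 221. The eIF3h transcript, which checks the genotype labels, had signals of 245 and 432 in the mutant against 1363 and 1020.5 in the wild type. Of 8 shoot markers only RCA could be named, with 28004.5 and 50782 in the mutant and 30586 and 58204 in the wild type. Of 8 root markers 2 could be named: the root hair gene EXPA7 gave 61.8 to 128 and lay below the array median throughout, while PYK10 gave 6291 to 10915. These marker levels did not separate the genotypes except for EXPA7, which was higher in both mutant arrays, and whether tissue composition had a part in the results was not tested. Among the brightest probe sets, as many as the study had kept, limma called 9.68% lower and 8.49% higher in the mutant at an adjusted p under 0.05. Both mutant arrays lay below both wild-type arrays for 23.9% and above them for 28.4%. The median log2 ratio of mutant to wild type over all tested probe sets was 0.03.

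Of the plastid genes, 3 of 4 had far lower signals in the mutant. PSRP6, a small protein of the large subunit first described in spinach plastids and without a bacterial counterpart, had signals of 2475 and 3510.4 in repeats 1 and 2 of the mutant and of 12979 and 18293 in the wild type. Both mutant signals lay far below both wild-type signals, and the log2 ratios of the 2 repeats were almost equal, -2.39 and -2.38. Their mean of -2.39 (SD 0.0066, n = 2 repeats; limma standard error 0.17) is a 5.23-fold lower level. In total RNA of whole shoots, fewer cells of a type and less RNA per cell cannot be told apart, for this and every later result.

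RPL27, whose bacterial counterpart reaches towards the peptidyl transferase centre of the large subunit, had signals of 2149 and 3655 in the mutant and of 11009 and 11184 in the wild type. The wild-type arrays were alike and the mutant arrays were not, so that the log2 ratio was -2.36 in repeat 1 and -1.61 in repeat 2. The mean was -1.99 (SD 0.53, n = 2 repeats; standard error 0.22), a 3.96-fold lower level. RPL9, which in bacteria binds near the L1 stalk of the large subunit, had signals of 1815 and 2547 in the mutant and of 5875 and 6747 in the wild type. Its log2 ratios were -1.69 and -1.41, with a mean of -1.55 (SD 0.20, n = 2 repeats; standard error 0.18), a 2.93-fold lower level.

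PRPL35, another large subunit protein of bacterial type, stood apart from these 3. Its signals were 4778 and 4227 in the mutant and 4923 and 4486.5 in the wild type. The groups overlapped, with a mean log2 ratio of -0.06 (SD 0.03, n = 2 repeats; standard error 0.17). Hence the 4 plastid genes, all of the large subunit, ranged over more than 2 log2 units in their ratio between genotypes.

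**Figure D1:**
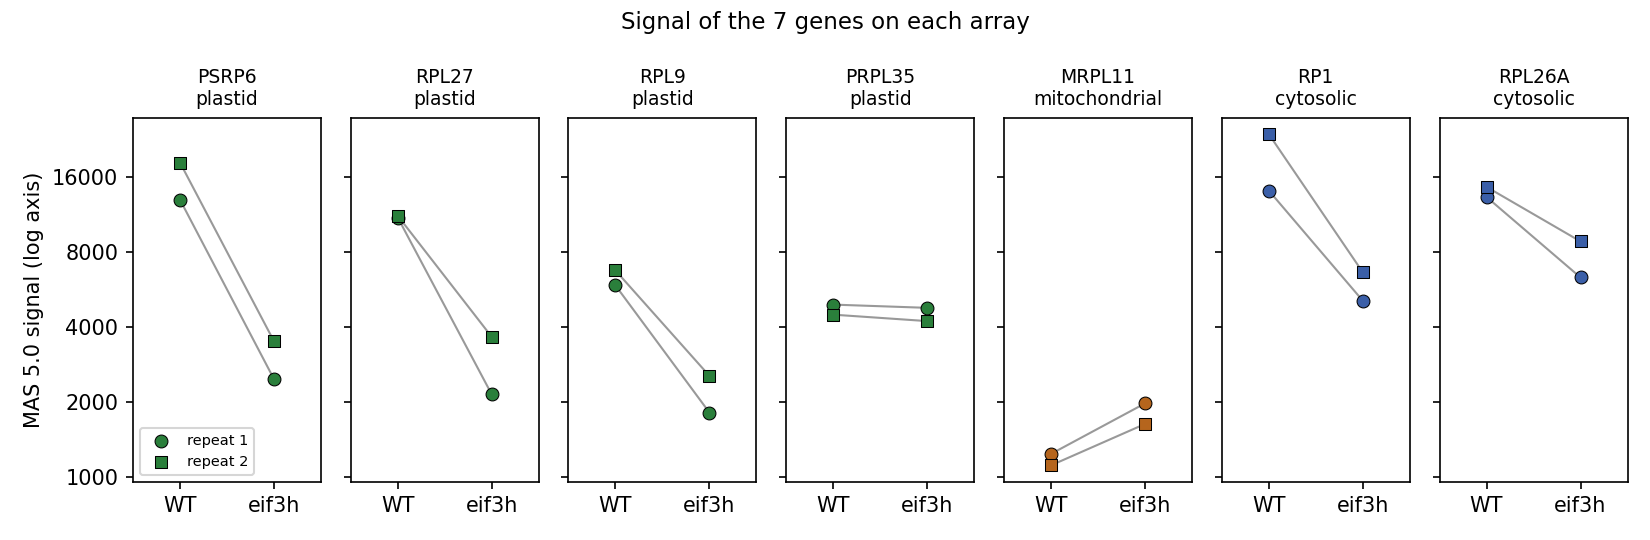
MAS 5.0 signal (log axis) of the 7 genes on the 4 arrays, 1 panel per gene, with circles for repeat 1, squares for repeat 2, a line joining the arrays of a repeat and colour the compartment. Both mutant arrays lie below both wild-type arrays for PSRP6, RPL27, RPL9, RP1 and RPL26A, overlap them for PRPL35 and lie above them for MRPL11.

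MRPL11, the mitochondrial form of a protein that in bacteria forms the base of the factor-binding stalk, was the only one of the 7 with higher signals in the mutant. The signals were 1976 and 1634 in the mutant and 1239 and 1115 in the wild type, without overlap. Its log2 ratios were 0.67 and 0.55, with a mean of 0.61 (SD 0.09, n = 2 repeats; standard error 0.17), a 1.53-fold higher level.

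Both cytosolic genes had lower signals in the mutant. RP1 encodes L3, a large subunit protein that lies close to the peptidyl transferase centre in yeast. It had signals of 5104 and 6641 in the mutant and of 14122 and 23796 in the wild type. The highest mutant signal was below the lowest wild-type signal, and the log2 ratios were -1.47 and -1.84. The mean of -1.65 (SD 0.26, n = 2 repeats; standard error 0.19) is a 3.15-fold lower level.

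RPL26A, 1 of 2 genes for a protein that lies near the exit of the peptide tunnel, had signals of 6326 and 8825 in the mutant and of 13309 and 14604 in the wild type. It showed the smallest difference of the 5 genes that were lower without overlap, with log2 ratios of -1.07 and -0.73. Their mean was -0.90 (SD 0.245, n = 2 repeats; standard error 0.18), a 1.87-fold lower level. Together, 5 of 7 genes were lower and 1 was higher without overlap. The genes were chosen with these ratios known, so the counts are not set against the shares of 23.9% and 28.4% over all tested probe sets.

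RPL26B (AT5G67510), the other gene of that family, moved the opposite way. Its signals were 3258 and 3256 in the mutant and 1802 and 2102 in the wild type. It rose by a mean log2 ratio of 0.74 (0.85 and 0.63; standard error 0.18), 1.67-fold, with an adjusted p of 0.0295 by limma. The ratio of RPL26B exceeded that of RPL26A by 1.93 in repeat 1 and by 1.36 in repeat 2 on the log2 scale. That gap of 1.64 was the widest of 39 cytosolic families with at least 2 tested genes. This rank rests in part on RPL26A having been chosen with its ratio known. The gaps cover only the named and tested genes of a family, and a family with more of these can show a wider gap. The 38 families without one of the chosen genes had a median gap of 0.38 between their lowest and highest ratio, and the widest of these, RPL13a, had 1.44.

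**Figure D2:**
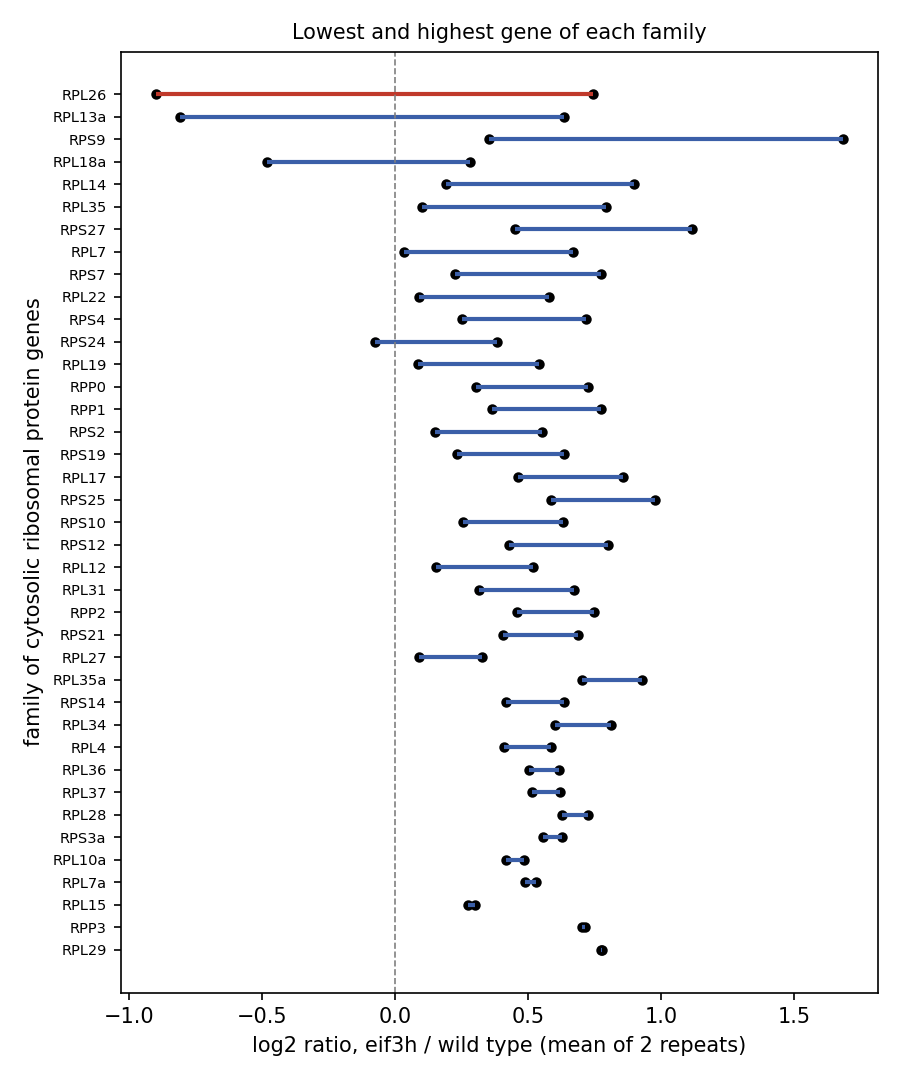
Lowest and highest gene of each family of cytosolic ribosomal proteins by log2 ratio, eif3h over wild type (mean of 2 repeats), with 1 line for each family and RPL26 in red. RPL26 spans -0.90 to 0.74 and RPL13a spans -0.81 to 0.63, while the median gap of the families without a chosen gene is 0.38.

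Among the related genes in other compartments, the mitochondrial L9 gene (AT5G53070) was too dim to be tested. Its signals of 439 and 244 in the mutant and 276 and 192 in the wild type gave log2 ratios of 0.67 and 0.35, opposite in sign to those of plastid RPL9, and the groups overlapped. The second L3 gene, the plastid L11 gene and both mitochondrial L27 genes had no named probe set here.

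The compartments were then contrasted through the other ribosomal protein genes that the platform annotation names, leaving out the 7. Cytosolic and mitochondrial ribosomal protein transcripts were mostly higher in the mutant, and plastid ones were mostly near or below their wild-type level. Of 111 cytosolic genes tested, 40 rose (36.0%, against 8.49% of all tested probe sets), 1 fell (0.901%, against 9.68%) and 70 did not pass the test. Their median log2 ratio was 0.52, a 1.43-fold difference, with 0.52 in repeat 1 and 0.54 in repeat 2, and 108 of the 111 ratios were above 0. Both mutant arrays exceeded both wild-type arrays for 92 of them (82.9%, against 28.4%). Of 40 small subunit genes 16 rose, and of 71 large subunit genes 24 rose and 1 fell, with medians of 0.53 and 0.51. Among the 92 cytosolic genes that stand in none of the study's lists, 35 rose and 1 fell, with a median of 0.54.

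RP1 and RPL26A lay below every one of these 111 genes, a rank that rests in part on their having been chosen with their ratios known. Their log2 ratios differed from the cytosolic median by -2.17 and -1.42. The cytosolic gene that rose most was AT5G39850, for small subunit protein S9, a protein near the mRNA entry of the small subunit. Its signals were 1387 and 909 in the mutant and 472 and 259 in the wild type, a mean log2 ratio of 1.68 (standard error 0.18; limma adjusted p = 0.00201). The next were AT2G45710 (S27) with 1.12 (adjusted p = 0.0074), AT4G39200 (S25) with 0.98 (adjusted p = 0.0314) and AT1G74270 (L35a) with 0.93 (adjusted p = 0.0161). AT2G45710 also stands in the study's list of raised transcripts, and AT4G39200 differed between repeats, with 1.43 and 0.52.

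The 1 cytosolic gene of the 111 that fell was AT5G48760, 1 of the 4 tested genes for L13a. Its signals were 935 and 679 in the mutant and 1968 and 986 in the wild type. The mean log2 ratio was -0.81 (-1.07 and -0.54; limma adjusted p = 0.0321), which lies just above that of RPL26A.

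Few plastid genes could be named: 10 of 41 listed, all of which were tested. Among them 1 fell by limma (10.0%, near the 9.68% of all tested probe sets) and none rose (against 8.49%). At an unadjusted p under 0.05 the counts were 2 lower and 0 higher. In the same fit, 3181 of all tested probe sets were at that threshold, both directions together. Their split by direction was not counted, so the 2 genes are not read as an excess. The gene that fell was AT5G24490 (PSRP1), whose product binds the plastid small subunit and is related to bacterial hibernation factors. It had signals of 3549 and 4871 in the mutant and of 5899 and 7065 in the wild type, a mean log2 ratio of -0.63 (adjusted p = 0.0451). This call was lost under quantile normalization, without the repeat as a block and with all probe sets tested. The other 9 had ratios of -0.52 to 0.10. The median of the 10 was -0.22 in both the mean and repeat 1 and -0.25 in repeat 2. Both mutant arrays were below both wild-type arrays for 5 of them (against 23.9% of all tested probe sets) and above for none (against 28.4%).

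PSRP6, RPL27 and RPL9 had lower log2 ratios than all 10 of these genes and differed from the plastid median by -2.17, -1.77 and -1.33. These 3 stand in the study's list of lower transcripts from these arrays, so their rank follows from the choice. PRPL35 lay among the 10 genes, with 7 lower and 3 higher. The plastid median moved with the arrays used, from -0.12 without the second wild-type array and -0.13 without the first mutant array to -0.38 without the first wild-type array. A further 2 plastid genes that were named only through the study's lists had ratios of -0.24 and -0.165, and neither passed the test.

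Of 26 mitochondrial genes tested, 8 rose (30.8%, against 8.49% of all tested probe sets), none fell (against 9.68%) at either the adjusted threshold of limma or an unadjusted p under 0.05, and 18 did not pass. The median log2 ratio was 0.52 (0.50 and 0.59 in repeats 1 and 2), with a range of 0.10 to 1.43. MRPL11 lay near that median, with 16 genes lower and 10 higher. The gene that rose most was AT1G17560 (HLL, a mitochondrial L14 protein needed for ovule development), with signals of 657 and 863 in the mutant and 256 and 305 in the wild type and an adjusted p of 0.00311. It was followed by genes for L12 (AT4G37660, log2 ratio 1.04, adjusted p = 0.0119), L15 (AT5G64670, 0.99, adjusted p = 0.0169) and a second L14 (AT5G46160, 0.84, adjusted p = 0.0235).

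**Figure D3:**
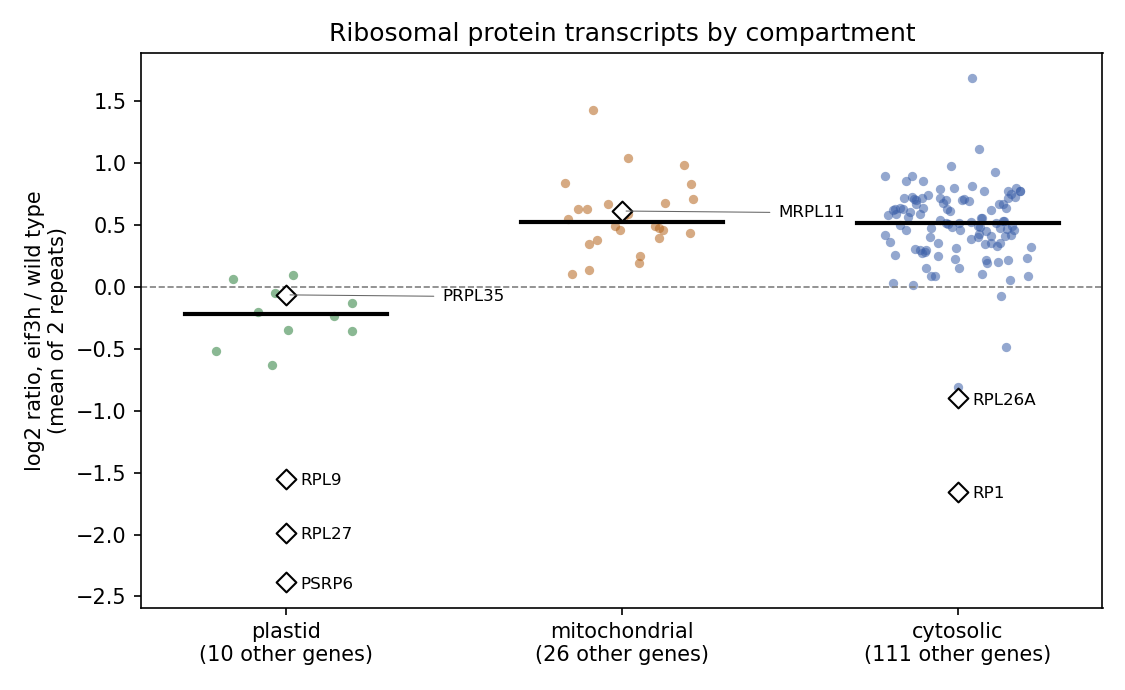
Log2 ratio of eif3h over wild type (mean of 2 repeats) for ribosomal protein genes by compartment, with circles the genes named by the platform annotation, bars their medians and diamonds the 7 chosen genes. The medians are -0.22 for 10 plastid, 0.52 for 26 mitochondrial and 0.52 for 111 cytosolic genes. The labelled diamonds of PSRP6, RPL27, RPL9, RP1 and RPL26A lie below every circle of their compartment, and these genes were chosen with their ratios known.

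The cytosolic median exceeded the plastid median by 0.74 on the log2 scale (0.74 and 0.78 in repeats 1 and 2), and the mitochondrial median exceeded it by 0.74 (0.73 and 0.84). The cytosolic minus the mitochondrial median was 0.02 in repeat 1 and -0.05 in repeat 2. These differences between lists are descriptions and were not tested. Signal level moved with compartment: of the brightest 1000 probe sets, 74 were cytosolic, 10 plastid and 0 mitochondrial genes of these lists, and the median log2 ratio of the 1000 was -0.02.

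The counts of genes that rose or fell rest on the fit with the repeat as a block. Without that block limma called 0 cytosolic, 0 plastid and 0 mitochondrial genes. At an unadjusted p under 0.05 these counts were 48, 2 and 11, against 1792 of all tested probe sets. With all probe sets tested it also called none (11, 0 and 5 at that threshold, against 2683 probe sets). The medians in these fits were -0.22 (plastid) and 0.51 to 0.52 (cytosolic and mitochondrial). Neither setting alters the log2 ratio of a gene, so the medians are not checked by them.

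The contrast of the repeats was not used in choosing the genes, and limma called 2.47% of all tested probe sets in it. Of the 7 genes 0 were called, with adjusted p-values of 0.13 to 0.626, and 2 were at an unadjusted p under 0.05. In both genotypes, 5 of the 7 had higher signals in repeat 2 (PSRP6, RPL27, RPL9, RP1 and RPL26A) and PRPL35 and MRPL11 had lower ones. For RPL27 the wild-type change was only 0.02 on the log2 scale, against 0.77 in the mutant. The shares of all tested probe sets with 1 direction in both genotypes, or at that unadjusted threshold, were not counted. Across all tested probe sets, the repeat changes in mutant and wild type had a correlation of 0.53, so a shared direction is not particular to these genes. The coefficient was largest for RP1, at 0.57 (adjusted p = 0.13), and for PSRP6, at 0.50 (adjusted p = 0.145). The 5 genes higher in repeat 2 are those lower in the mutant without overlap, and whether these differences are linked was not tested.

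**Figure D4:**
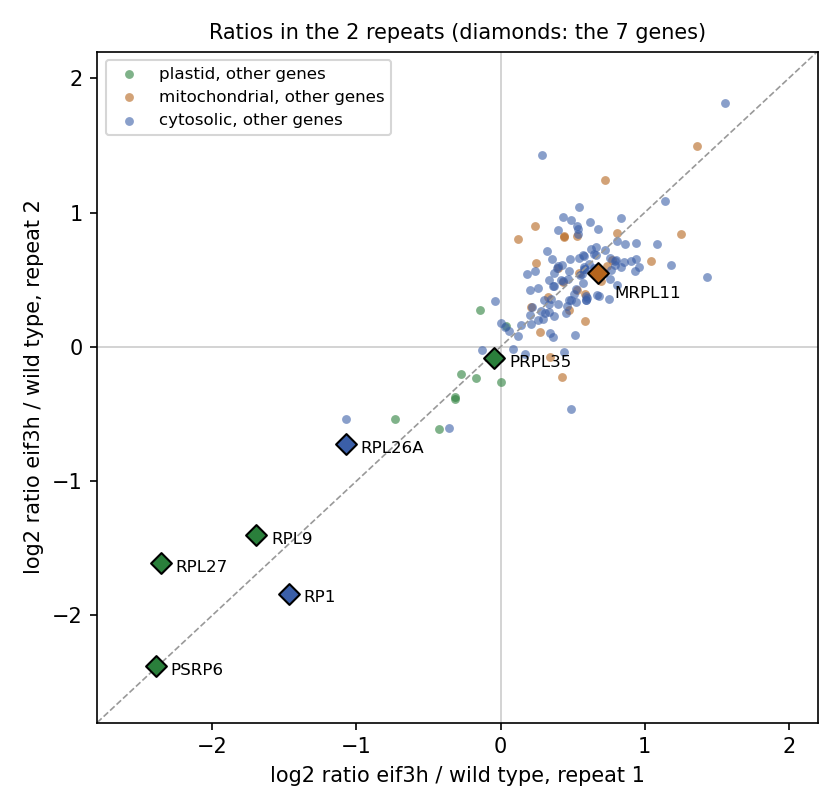
Log2 ratio of mutant to wild type in repeat 1 (x axis) and repeat 2 (y axis), with a dashed line of equality, small points the other ribosomal protein genes by compartment and diamonds the 7 chosen genes. PSRP6 lies on the diagonal at -2.39 and -2.38, RPL27 above it at -2.36 and -1.61, and RP1 below it at -1.47 and -1.84.

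The probe sets most like each gene were sought among all named and tested ones by the Euclidean distance of log2 signals, each centred on its own mean over the 4 arrays. With 4 arrays this likeness reflects mainly the genotype and repeat differences, and the genotype ratios were known when the genes were chosen. Closest to RPL26A was AT1G75460, at a distance of 0.0339, and closest to PRPL35 was AT5G13810, at 0.0342. MRPL11 was closest to AT3G15460 (0.0455), RPL27 to CYP706A5 (0.0724), RPL9 to AT2G21210 (0.148) and RP1 to AT1G71500 (0.159). Of these neighbours, CYP706A5, AT2G21210 and AT1G71500 were named only through the study's list of lower transcripts from these arrays. PSRP6 had the most distant neighbour, AT5G39080, at 0.245. For none of the 7 was the nearest probe set another of them.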

How the data were processed

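The deposited values are intensities, the MAS 5.0 signals of 4 Affymetrix ATH1 arrays (2 eif3h, 2 wild type), which the authors scaled to a common trimmed mean. Detection calls were not used here. The 8831 probe sets with the highest mean log2 signal, as many as the study kept, entered a linear model of repeat and genotype (lmFit and eBayes of limma 3.58.1, R 4.3.3) with Benjamini-Hochberg adjustment over all of them. The fit has 1 residual and 6.58 prior degrees of freedom. The number of arrays limits the precision. The repeat was a block because the study's methods form ratios within a repeat, and changes between repeats in the 2 genotypes had a correlation of 0.53 across probe sets.

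Of 22746 probe sets, 13436 were named by the platform annotation, 503 have several genes there, 364 were named only through the study's lists, and 8443 are not named here. Ribosomal protein lists (229 cytosolic, 41 plastid and 47 mitochondrial loci) were written from general knowledge, which also gives the protein family of a locus, and 129, 10 and 29 of them were named. The genes and lists were chosen with earlier results of these data known. Named genes are the 7, eIF3h, their paralogues, the 4 called genes of each list that rose or fell most, and the nearest probe sets. Alternatives were no replicate block, quantile normalization, all probe sets, an offset of 50 and leaving out each array. The fit was tested on simulated data. Python 3.11.15, numpy 2.4.6, pandas 2.3.3 and matplotlib 3.10.9 made the summaries.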

Additional observations from a re-analysis of the deposited data

How the results depend on the processing

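With the repeat as a block, limma called 855 probe sets lower and 750 higher in the mutant, so that 46.7% of the calls were higher. Without the replicate block it called 67 lower and 14 higher (17.3% higher), and 0 cytosolic genes higher or lower, 0 plastid genes lower and 0 mitochondrial genes higher. With all probe sets tested it called 0 in every one of these counts, while 2683 probe sets had an unadjusted p under 0.05, against 3181 with the block and 1792 without it. Quantile normalization left 0 plastid genes lower, and called 33 cytosolic and 8 mitochondrial genes higher. The offset gave 44, 8 and, for plastid genes lower, 1.

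Leaving out 1 array allowed only a fit without the block, in which the lone array is assumed to vary like the pair. The calls were then 42 to 139 lower and 15 to 44 higher, with 0 to 1 cytosolic genes higher, 0 to 0 cytosolic genes lower, 0 to 0 plastid genes lower and 0 to 0 mitochondrial genes higher. The median log2 ratios ranged over 0.47 to 0.54 (cytosolic), -0.38 to -0.12 (plastid) and 0.51 to 0.62 (mitochondrial). That of the 7 genes, -1.55 with all arrays, ranged over -1.79 to -1.28. PRPL35 (-0.06 with all arrays) ranged over -0.153 to 0.0238 and changed sign, to 0.0238 without eif3h replicate 2 and 0.0024 without wild type replicate 1, and the other 6 kept theirs. No member was called in the repeat contrast under quantile normalization, with all probe sets or with the offset. The causes of these changes were not tested.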
